A study of Mus musculus with 24 samples.

Results

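Among the autosomal chromatin regions tabulated for these mouse hearts, 331 had the highest input read density. Input is the digested chromatin that was sequenced without an antibody, so its density shows how many reads a stretch of genome gives before any histone mark is selected. The members were taken from the 32581 autosomal regions that overlap no other listed region (the eligible regions), out of 53386 in the tables. They are the top 1% by the summed counts of the 12 input libraries per base of width, which set the lower limit at 233 counts per kb. The study applied ischemic preconditioning to C57BL6 mice aged 12 months, 3 female and 3 male, with 4 cycles of 5 min of coronary ligation and 5 min of reperfusion followed by 30 min of reperfusion. From each of the 6 mice 1 biopsy was taken from the area at risk, the myocardium fed by the ligated artery, and 1 from the remote myocardium of the same heart. Each biopsy gave an H3K9me2 library and an input library, so the 24 libraries form 4 groups of 6. These groups are H3K9me2 of the area at risk, input of the area at risk, H3K9me2 of the remote myocardium and input of the remote myocardium. All 6 hearts were preconditioned, so the remote myocardium is an internal comparison and not an unoperated heart; sham hearts were not analysed here. The biopsies are whole tissue and hold every cell type of the myocardium.

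H3K9me2 is histone H3 dimethylated on lysine 9, a mark of silent chromatin that the methyltransferases G9a and GLP deposit over broad domains and that is scarce at active promoters. Input libraries are not flat. Reads pile up where a sequence present in many copies is represented by fewer copies in the assembly, and accessible chromatin such as the CpG-rich promoters of active genes is, in many protocols, released more readily from fixed nuclei. A precipitated library is drawn from the same chromatin, so an antibody that selected nothing would repeat the input profile.

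The libraries held 416683 to 1196368 counts in the tables for H3K9me2 of the area at risk, 1286383 to 2478668 for its inputs, 443261 to 981763 for H3K9me2 of the remote myocardium and 1405503 to 1770520 for its inputs. Densities are given below as summed counts per kb over the libraries of a group, or, for single libraries, as CPM per kb, where CPM is scaled to the library's total over the listed regions. Intervals cover counting error only and leave out variation between mice and libraries. Reads were counted without molecular identifiers.

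Promoter sequences are given for members with a start site inside, from both ends of H3K9me2 over input, and stand for such members only. Of the 38 members in the top 1% of H3K9me2 density in both biopsies, 5 (13.2%) had a start site within 1 kb. The sequences are the 250 bases upstream of the start site, from RefSeq on GRCm38.p6, on the gene's strand, with each CpG in capitals. The first 3 are the members with a start site inside and the lowest H3K9me2 over input, namely Chaserr at chr7:73558396-73558645 with 27 CpG, Yy1 at chr12:108793047-108793296 with 36 and Ptp4a2 at chr4:129820229-129820478 with 46.
Chaserr: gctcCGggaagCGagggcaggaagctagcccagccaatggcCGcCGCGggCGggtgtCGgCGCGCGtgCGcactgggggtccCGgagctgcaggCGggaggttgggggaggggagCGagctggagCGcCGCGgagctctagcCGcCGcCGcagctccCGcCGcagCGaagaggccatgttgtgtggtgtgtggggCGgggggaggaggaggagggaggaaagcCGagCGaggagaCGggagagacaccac
Yy1: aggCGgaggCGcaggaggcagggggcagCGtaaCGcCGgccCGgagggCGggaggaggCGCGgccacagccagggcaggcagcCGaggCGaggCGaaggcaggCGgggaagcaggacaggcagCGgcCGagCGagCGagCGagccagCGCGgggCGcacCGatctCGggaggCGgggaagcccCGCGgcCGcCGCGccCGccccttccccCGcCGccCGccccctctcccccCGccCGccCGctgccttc
Ptp4a2: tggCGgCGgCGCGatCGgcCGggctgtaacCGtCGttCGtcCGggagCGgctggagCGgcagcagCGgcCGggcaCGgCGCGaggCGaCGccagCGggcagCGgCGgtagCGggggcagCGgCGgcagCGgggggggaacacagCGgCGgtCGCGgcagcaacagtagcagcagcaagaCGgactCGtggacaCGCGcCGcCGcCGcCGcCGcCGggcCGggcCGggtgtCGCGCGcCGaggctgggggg
Of the members with a start site inside, the one at Zfp985 was among those with the highest H3K9me2 over input. Its window at chr4:147553027-147553276 holds 5 CpG at 41.6% GC. The other such member, at LOC115490388, has a window at chr6:3182866-3183115 with 13 CpG at 63.6% GC, which is not printed. In the next 2 lines capitals mark the 50 bases shared with the window of Zfp987, at chr4:146097062-146097311 on the same chromosome.
Zfp985: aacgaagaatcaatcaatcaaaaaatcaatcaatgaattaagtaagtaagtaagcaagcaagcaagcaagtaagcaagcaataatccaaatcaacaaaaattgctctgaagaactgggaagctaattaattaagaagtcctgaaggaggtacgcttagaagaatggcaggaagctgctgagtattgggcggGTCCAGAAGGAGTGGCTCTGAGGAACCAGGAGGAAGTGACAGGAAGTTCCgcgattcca
Zfp987: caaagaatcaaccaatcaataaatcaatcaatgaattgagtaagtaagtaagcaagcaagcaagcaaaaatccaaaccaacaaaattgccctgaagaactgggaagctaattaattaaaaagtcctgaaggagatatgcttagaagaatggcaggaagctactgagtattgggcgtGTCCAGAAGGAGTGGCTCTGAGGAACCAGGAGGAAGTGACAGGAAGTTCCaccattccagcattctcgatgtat
Within these 250 bases Zfp985 also shared a run of 50 with Zfp988 and at most a run of 35 with Zfp534. All are zinc finger genes of chromosome 4. The shared windows counted below are longer, at 300 bases with 50 after the start site.

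The values in this paragraph chose the members and are a description only. Member density had a median of 245 input counts per kb, 1.39 times the eligible median of 176, with quartiles of 237 and 260.0. The rank plot of input density shows a steep head and a long shoulder, with 11 regions above 400 counts per kb and the other 320 between there and 233. At the lower limit 8 regions were tied at 233, among them the start-site regions of Stat5a, Osbpl9 and Cdk8 and the last ranked one at Nkapd1 and Pih1d2. With 233 counts in 1000 bases the exact 95% Poisson interval is 204 to 265 per kb. The first regions outside, at Ap5z1 with 232.9 and at Efna2 and the Cdc27 and Myl4 pair with 232.5, lie within that interval. The members were also narrow, with a median of 1000 bases against 2400 for eligible regions, and 118 were under 1000 bases. Near the limit, membership thus turns on differences within counting error.

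**Figure D1:**
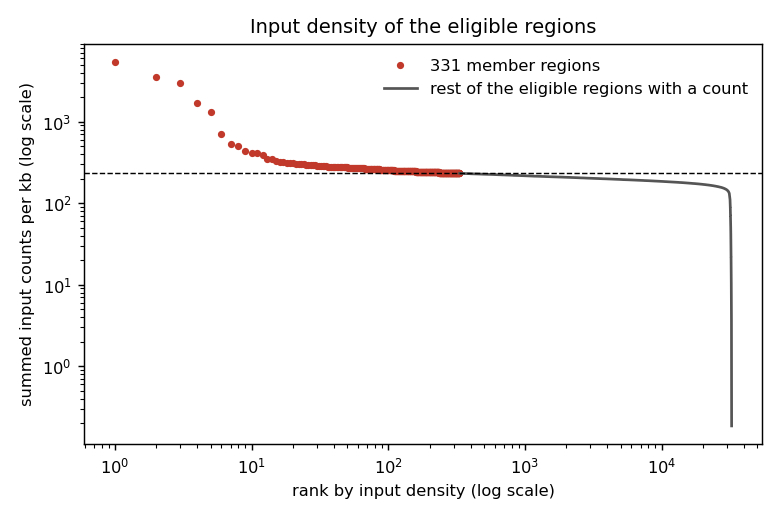
Summed counts of the 12 input libraries per kb (y axis, log scale) against rank (x axis, log scale) for the 331 member regions (points) and the rest of the eligible regions with a count (line); the dashed line is the lower limit of 233 per kb. The first 8 regions lie between 5387 and 511 per kb, and the curve is flat at the limit.

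The head of the list was a handful of pile-ups in single genes of different function or between genes. The densest region was chr16:11143800-11144399 inside Zc3h7a, a gene for a CCCH-type zinc finger RNA-binding protein, with 5387 input counts per kb or 30.6 times the eligible median. The next were chr3:5860200-5860999, with no annotated gene within 100 kb, at 3543 per kb, and chr11:109011200-109012199 in the predicted gene Gm36876 at 2963 per kb. Then came chr5:146259800-146261399 in Cdk8 (the kinase of the Mediator complex), 28550 bases from its start, at 1702 per kb, and chr9:123461000-123462199 in Lars2 (mitochondrial leucyl-tRNA synthetase) at 1308 per kb. The sixth was chr5:137152000-137152999 in Muc3, an intestinal mucin gene, at 705.0 per kb. Between genes lay the seventh, chr12:20226400-20234599, at 536 per kb with 4 predicted genes around it, and the eighth, chr9:124255800-124257999, at 511 per kb. The annotation gives gene spans and not exons, so exon and intron were not told apart.

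At these pile-ups H3K9me2 was high too, in both biopsies. The Zc3h7a region held 1052 summed H3K9me2 counts per kb in the area at risk, 26.1 times the eligible median, and 1197 in the remote myocardium, 31.1 times its median. By library, area at risk H3K9me2 was 160, 248 and 366 CPM per kb (lowest, median, highest), against 236, 258 and 287 in its inputs. In the remote myocardium H3K9me2 was 216, 278 and 399.9 CPM per kb, against 236, 289 and 325 in its inputs. The H3K9me2 and input ranges overlapped in both biopsies, and H3K9me2 was the more scattered.
The Gm36876 region gave 121, 147 and 227 CPM per kb for area at risk H3K9me2 against 119.6, 149 and 179 for its inputs. Its remote libraries gave 123, 164 and 224 CPM per kb for H3K9me2 against 132, 148 and 184 for input. All 8 densest regions are also in the top 1% when chosen on either biopsy's inputs alone. Their rank as the 8 densest used the inputs of both biopsies. The ratios of H3K9me2 to input at these 8, with their p-values, are therefore a description only. In edgeR fits over all listed regions, the log2 ratio was -0.12 ± 0.12 (SE) in the area at risk and -0.0099 ± 0.085 in remote myocardium at Zc3h7a, with Benjamini-Hochberg adjusted p of 0.491 and 0.940 and 4 and 3 of 6 mice lower. At Gm36876 it was 0.06 ± 0.11 and 0.10 ± 0.09, with edgeR adjusted p of 0.733 and 0.362. In the area at risk the Gm36876 ratio is -0.014 without mouse 19.

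At the other regions of the same head the log2 ratio of H3K9me2 to input was mostly above 0, and below 0 at Cdk8. These ratios and p-values are likewise a description only, since the inputs in them also ranked the regions. At Muc3 H3K9me2 was 45.1, 59.1 and 84.6 CPM per kb in the area at risk, against 27.0, 35.0 and 44.6 in its inputs, ranges that did not overlap. Its remote libraries gave 27.1, 55.9 and 78.4 CPM per kb for H3K9me2 against 28.9, 36.8 and 44.4 for input, with 5 of 6 mice higher. The log2 ratio at Muc3 was 0.72 ± 0.15 in the area at risk and 0.67 ± 0.13 in remote myocardium (edgeR adjusted p 0.000331 and 7.04e-06), with all 6 mice higher in the area at risk. The chromosome 12 region had ratios of 0.56 ± 0.12 and 0.53 ± 0.08 (edgeR adjusted p 0.000361 and 2.12e-09), with all 6 mice higher in each biopsy. Lars2 had 0.37 ± 0.12 and 0.34 ± 0.10 (edgeR adjusted p 0.0206 and 0.0029), with 6 and 5 of 6 mice higher. The area at risk call at Lars2 is lost without mouse 19 (adjusted p 0.0614) or mouse 27 (adjusted p 0.0577). At chr9:124255800-124257999 the ratio was 0.23 ± 0.13 in the area at risk (edgeR adjusted p 0.177, 5 of 6 mice higher) and 0.49 ± 0.11 in the remote myocardium (adjusted p 0.000114, 6 of 6 mice higher), and the difference between the biopsies, -0.25 ± 0.16, had an edgeR adjusted p of 1.00.
The chromosome 3 pile-up had ratios of 0.15 ± 0.12 and 0.21 ± 0.09 (edgeR adjusted p 0.364 and 0.0422), with 3 and 5 of 6 mice higher. Its remote call is lost without mouse 17, 19, 22 or 23 (adjusted p 0.0688 to 0.295) and in DESeq2 (0.331). At Cdk8 the ratio was -0.25 ± 0.11 in the area at risk, lower in 6 of 6 mice, and -0.0015 ± 0.087 in the remote myocardium (edgeR adjusted p 0.0987 and 0.991). With mouse as a block the area at risk value at Cdk8 becomes -0.27 with an adjusted p of 0.0134.

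**Figure D2:**
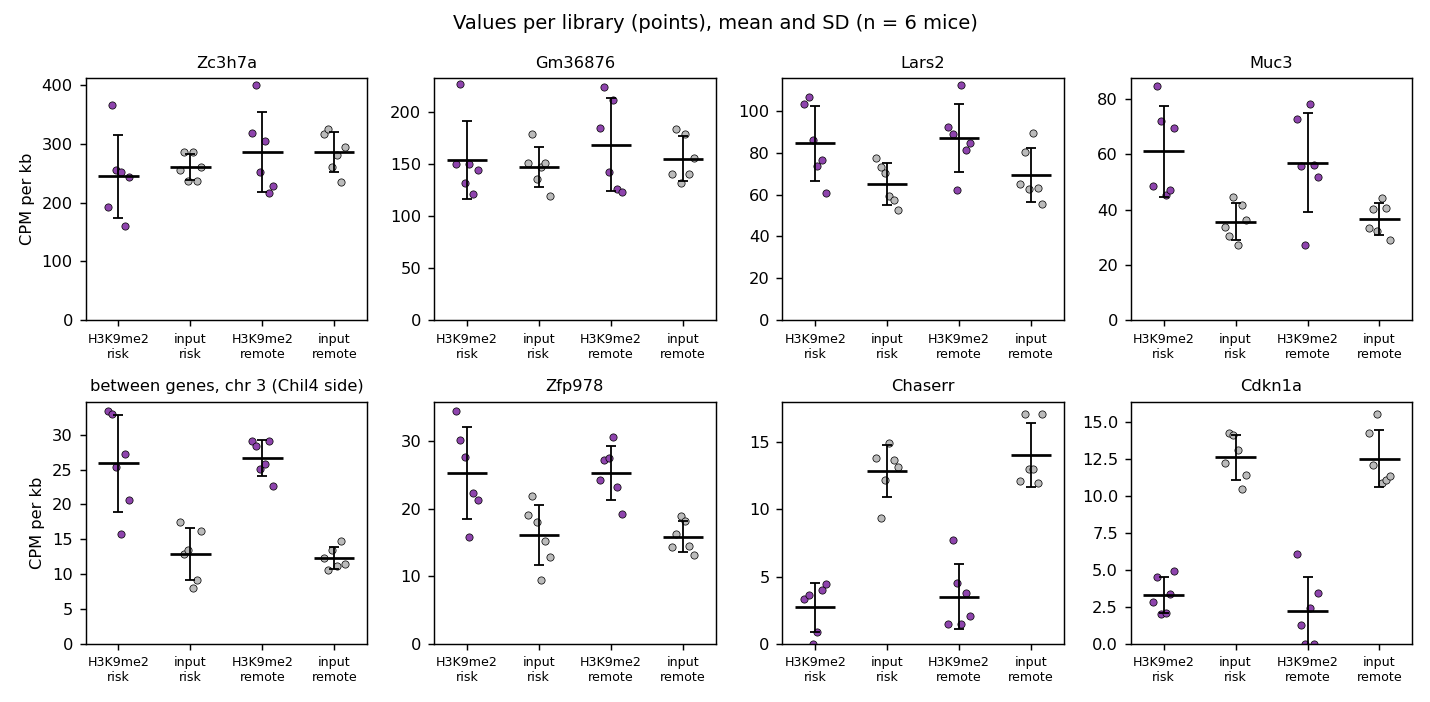
CPM per kb (y axis, linear from 0) in each library for 8 member regions; points are mice, bars the mean and whiskers the SD (n = 6), with H3K9me2 and then input of the area at risk, followed by the same for the remote myocardium. H3K9me2 and input overlap at Zc3h7a and Gm36876, H3K9me2 is higher at Muc3, Zfp978 and the chromosome 3 region beside Chil4, and lower at Chaserr and Cdkn1a.

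Clustered gene families were counted next; the share of repeated sequence was not measured, since no genome sequence was used. Of 22 gene families counted, 16 overlapped no member, but none of these overlapped more than 0.242% of eligible regions, so counts of 0 are near the background and nothing is read from them. Zinc finger genes named Zfp, many of which encode DNA-binding repressors, overlapped 8 members (2.42%, against 1.04% of eligible regions). There were 12 members (3.63%) with at least 3 such genes within 250 kb, against 1.602% of eligible regions. Members less than 100 kb apart formed 1 run of 7, at chr4:147389400-147604199 over Zfp978, Zfp982 and Zfp985, and 3 runs of 3, while 279 members stood alone. One run of 3 lies between genes at chr4:122021000-122034799, and the other two hold Cdkn1a with Cpne5, and Ssbp4, Jund and Pde4c.
Copies that resemble each other can be seen here only through promoter windows. Counting windows within 100 kb that share a run of 50 bases with the window of another gene, 42 of 307 members with a window nearby (13.7%) had one, against 9.30% of eligible regions. Neighbouring members can score the same window, so the 42 are not independent. The zinc finger members as a class had H3K9me2 medians of 1.94 times the eligible median in the area at risk and 2.31 times in remote myocardium, and 10 and 9 of the 12 lay above it. The 498 other eligible regions in such clusters had medians of 0.898 and 0.892 times. All named regions of the run of 7 on chromosome 4 belong to this class of 12. Neighbouring regions of that locus thus weigh heavily in the class values, which are not a property of zinc finger clusters in general. Zfp978, the widest member at 16800 bases, had 15.8, 25.0 and 34.5 CPM per kb of H3K9me2 in the area at risk against 9.49, 16.6 and 21.8 in its inputs. In the remote myocardium it had 19.2, 25.7 and 30.6 CPM per kb against 13.1, 15.4 and 18.9 for input, with no overlap. Not all members of the class behaved alike. The one at Ube2m, a NEDD8-conjugating enzyme gene next to a zinc finger cluster on chromosome 7, was in the lowest 10% of H3K9me2 density in both biopsies.

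Gene starts took a larger share of members than of eligible regions. A RefSeq start site lay within 1 kb of 131 of 326 members (40.2%), against 17.2% of eligible regions; the 5 members on chromosome 18 have no start sites in the table used. Their promoter windows were CpG-rich, meaning GC of at least 50% and an observed over expected CpG ratio of at least 0.6. This held for 136 of 186 member windows (73.1%), against 54.9% of the windows at eligible regions and 34.1% of all 31396 autosomal windows. GC boxes (GGGCGG on either strand), which overlap the CpG count, were in 71.5% of member windows, against 54.4% of those at eligible regions and 36.0% of all. The TATAAA box showed the opposite order, with 4.30% of member windows against 7.83% and 13.6%. The palindromic cAMP response element TGACGTCA was in 5.38% of member windows against 2.42% and 1.83%. Such matches describe the letters in these windows and not bound factors.
The genes include Yy1 (a zinc finger transcription factor), Jund (an AP-1 subunit), Cdkn1a (the cell cycle inhibitor p21), Men1 (menin, a partner of histone H3K4 methyltransferases), Ets2 (an ETS factor), Ubtf (the RNA polymerase I factor UBF) and Stat5a (a cytokine-activated transcription factor). Yy1 and Ptp4a2, a protein tyrosine phosphatase gene, held 15.7 and 15.8 H3K9me2 counts per kb in the area at risk and 10.7 and 10.8 in remote myocardium, with 248 and 242.5 for input. All but Cdkn1a, Jund and Men1 were picked here after their values were seen.

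H3K9me2 density spread to both sides of the eligible median across the list. Over all 331 members the median H3K9me2 density was 39.2 counts per kb in the area at risk and 37.5 in remote myocardium, 0.972 and 0.974 times the eligible medians of 40.3 and 38.5. The median conceals both ends. In the area at risk 50 members (15.1%) were in the top 1% of eligible regions by H3K9me2 density and 63 (19.0%) in the lowest 10%; in the remote myocardium 49 (14.8%) and 67 (20.2%) were. The same members made up most of each end, with 38 in the top 1% and 48 in the lowest 10% in both biopsies. The members' narrow width adds counting error at each end.
Start-site members with a CpG-rich window (105) had H3K9me2 medians of 0.652 and 0.633 times the eligible median in the area at risk and the remote myocardium, and 93 and 92 of them were below it. The 26 whose windows were not CpG-rich had 1.19 and 1.08 times, and the 195 without a start site nearby 1.18 and 1.19 times. Low H3K9me2 was also seen at gene starts outside the list. The 128 start-site members outside zinc finger clusters had 0.715 and 0.704 times, with 21.9% and 22.7% above the eligible median. The 5209 other eligible regions of that class had 0.807 and 0.792 times, with 27.2% and 27.4% above it. In the set of 48, 40 of 47 (85.1%) had a start site within 1 kb, 82.0% of their windows were CpG-rich and 4 of 47 (8.51%) had a shared window. In the set of 38, 5 (13.2%) had a start site within 1 kb and 0 of their 6 windows were CpG-rich. In that set 15 of 32 (46.9%) had a shared window and 17 (44.7%) overlapped no gene, against 22.3% of eligible regions. Of the 38, 7 lie in zinc finger clusters. Neighbouring members can score the same window, so the 15 are not independent. The 245 members in neither set had a shared window in 10.1%.
Across members, log2 input and log2 H3K9me2 density correlated with r = 0.627 in the area at risk and 0.603 in remote myocardium (Spearman 0.221 and 0.204, 331 regions). Without the 11 members above 400 input counts per kb, r was 0.187 and 0.149 (Spearman 0.138 and 0.120, 320 regions). Over 32412 eligible regions r was 0.637 and 0.580 (Spearman 0.014 and -0.016). Input density chose the members, which fixes its range, so nothing is read from the members' values against these. The points share their libraries and the copy number and base composition of each region. H3K9me2 of the area at risk and remote myocardium correlated with r = 0.933 across the members.

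**Figure D3:**
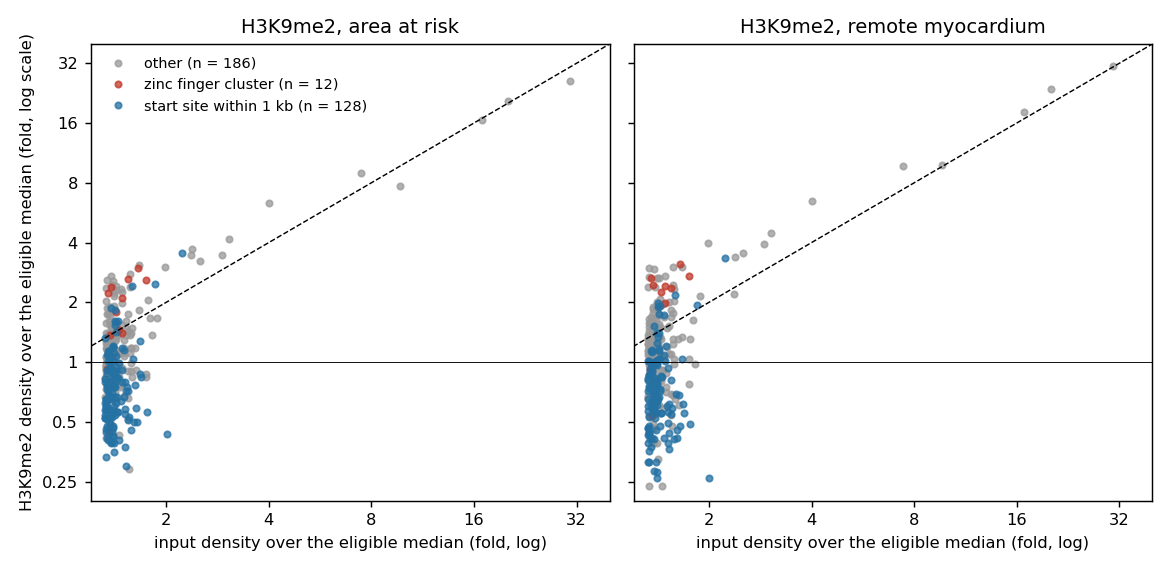
H3K9me2 density in the area at risk (left) and in remote myocardium (right) over the median of eligible regions (y axis, fold, log scale), against input density of all 12 input libraries over its median (x axis, fold, log scale); points are 326 members by class and the dashed line marks equal folds. The few regions beyond 5-fold input lie near the line, while start-site members mostly lie below 1, with class medians of 0.715 and 0.704. Other eligible start-site regions, not drawn, had medians of 0.807 and 0.792.

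The lowest and the highest ratios show what the spread looks like in single libraries; these regions were chosen for that ratio, so they get no test. Chaserr, a long noncoding RNA gene upstream of the chromatin remodeller Chd2, had 0, 3.47 and 4.45 CPM per kb of H3K9me2 in the area at risk, against 9.33, 13.4 and 14.9 in its inputs. In the remote myocardium it had 1.45, 2.89 and 7.74 CPM per kb, against 12.0, 13.0 and 17.1 for input. Cdkn1a had 2.00, 3.06 and 4.94 CPM per kb of H3K9me2 in the area at risk against 10.4, 12.6 and 14.3 for input, and 0, 1.855 and 6.07 in the remote myocardium against 10.8, 11.7 and 15.5. The libraries without a count, 1 at Chaserr and 2 at Cdkn1a, each allow up to 3 counts. H3K9me2 and input did not overlap at either gene in either biopsy. The third, chr15:85669800-85671999, lies 31774 bases from the start of Lncppara, the host locus of let-7 microRNAs, with log2 ratios of -1.66 ± 0.23 and -2.62 ± 0.26.
At the other end were 3 regions between genes. One, chr13:12911600-12914799, lies among prolactin family genes of the Prl2c group, with H3K9me2 at 12.8, 25.6 and 50.1 CPM per kb in the area at risk against 6.18, 14.9 and 20.4 for input. The others, chr3:106238400-106240199 and chr3:106309800-106310799, lie among the chitinase-like genes Chil3, Chil4 and Chil6. The first of them had H3K9me2 at 22.6, 27.1 and 29.1 CPM per kb in the remote myocardium against 10.6, 11.9 and 14.8 for input, ranges that did not overlap. Its log2 ratios were 0.99 ± 0.18 in the area at risk and 1.11 ± 0.15 in remote myocardium.

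Counted over the members that passed the filter on low counts, H3K9me2 over input was called (edgeR, FDR 0.05) higher at 25 and lower at 89 of 264 in the area at risk, and higher at 30 and lower at 112 of 259 in remote myocardium. Of all regions tested, 11.3% were higher and 12.3% lower in the area at risk (23.6% either way), and 20.5% and 20.0% in the remote myocardium (40.5% either way). The inputs of these fits also chose the members, so nothing is read from these counts.
Choosing on the other biopsy avoids that, but it does not remove the filter on low counts. The top 1% by remote inputs alone held 326 regions and the top 1% by area at risk inputs alone 330, with 131 in both lists (40.2% and 39.7%). Input density was 1.44 and 1.43 times the eligible median where the lists were chosen, and 1.30 and 1.29 times where they were read, in the other biopsy. There H3K9me2 was 0.937 times its eligible median in the area at risk and 1.04 times in the remote myocardium. At the regions chosen on remote inputs, area at risk H3K9me2 was called above its input at 22 of 272 tested (8.09%) and below it at 81 (29.8%), with a median log2 ratio of -0.37. Without mouse 19 the share called higher is 5.36%. At the regions chosen on area at risk inputs, remote H3K9me2 was above its input at 36 of 245 tested (14.7%) and below it at 78 (31.8%), with a median of -0.26. All eligible regions had 13.3% higher and 11.8% lower with a median of 0.04 in the area at risk, and 24.02% and 18.7% with 0.06 in the remote myocardium. The called shares and median ratios also depend on the filter, which a region can pass through its inputs alone. When only H3K9me2 libraries entered, 70 of 326 and 54 of 330 of the chosen regions passed, against 26444 of 32581 eligible regions. Regions admitted through their inputs alone are low in H3K9me2 by that choice, so nothing is read from these shares and medians.
By count, most of these lower calls were at start-site regions, but the counts depend on the filter, as given below. Of the start-site regions chosen on remote inputs, 58 of 108 tested (53.7%) were lower in the area at risk, with a median of -0.77, against 33.3% of all start-site regions, with -0.31. Of those chosen on area at risk inputs, 50 of 83 (60.2%) were lower in the remote myocardium, with a median of -0.76, against 44.2% and -0.35. The filter on low counts can be passed through the input libraries alone: of these start-site regions, 16 of 127 and 7 of 110 passed it when only H3K9me2 libraries entered. Regions that passed through their inputs alone are low in H3K9me2 by that choice, so nothing is read from these shares. Without a filter 66 of 127 (51.97%) and 72 of 110 (65.5%) were lower, with medians of -0.81 and -0.91. The unfiltered values of all start-site regions are not given here, so nothing is read from these counts and medians either. Regions of neither class were lower in 13.8% and higher in 11.2% of 152 tested in the area at risk, against 11.8% and 13.3% of all eligible regions. In the remote myocardium they were lower in 17.4% and higher in 18.8% of 149 tested, against 18.7% and 24.02%. These shares depend on the filter too, so nothing is read from them. Both lists come from the same mice, and no test of the difference between the lists and the other regions was made.

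**Figure D4:**
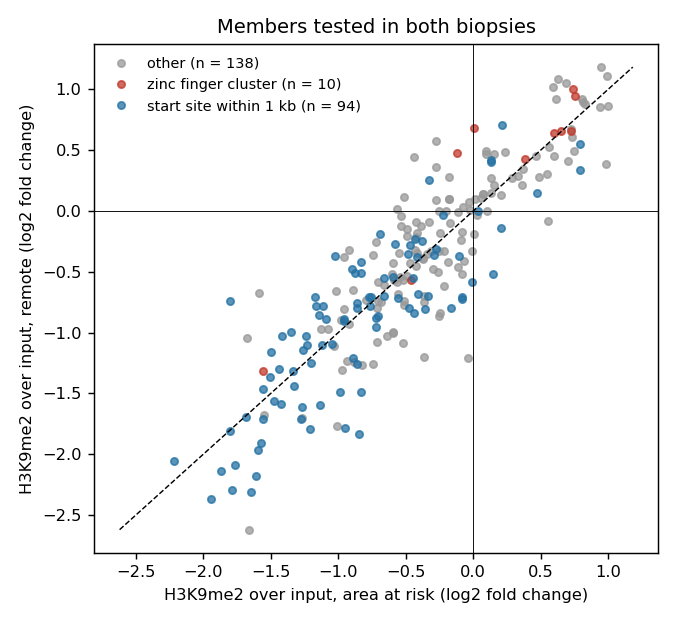
Log2 fold change of H3K9me2 over input in the area at risk (x axis) and in remote myocardium (y axis) for the members tested in both, by class (edgeR; the dashed line marks equal values). Of 244 members tested in both biopsies 171 were below 0 in both, 50 above 0 in both and 23 had opposite signs; the 2 on chromosome 18, which have no class, are not drawn.

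Between the biopsies no member was called. For H3K9me2 in the area at risk over the remote myocardium, 61 of the 331 members passed the filter, edgeR called 0 of them (0% of 31526 regions tested) and 4 had an unadjusted p under 0.05; DESeq2 called 0, with 1 under 0.05. The fit without a filter tested all 331 and called 0. For input in the area at risk over the remote myocardium 316 members were tested, with 0 called by edgeR (0% of 42603 regions) and 11 at an unadjusted p under 0.05, and 0 and 8 by DESeq2. For the input-corrected difference edgeR called 0 of 310 (0% of 42445 regions), with 11 under 0.05. The smallest p in each direction belonged to Cdk8 (lower) and Gm39469 (higher) for H3K9me2, the second of them at an unadjusted p of 0.0782, and to Eya2 and Men1 for the other contrasts. Cdk8 had H3K9me2 at 60.6, 63.3 and 92.3 CPM per kb in the area at risk against 74.7, 84.8 and 113 in the remote myocardium, a log2 difference of -0.35 ± 0.12 with an edgeR adjusted p of 0.999, lower in 6 of 6 mice. Gm39469, a predicted gene on chromosome 9, had 18.6, 21.4 and 26.3 CPM per kb against 16.1, 17.9 and 19.1, a difference of 0.27 ± 0.15 with an edgeR adjusted p of 0.999, higher in 6 of 6 mice.
Input inside Eya2, a gene for a transcriptional coactivator with phosphatase activity, was 12.1, 14.7 and 17.3 CPM per kb in the area at risk against 6.89, 8.19 and 13.6 in the remote myocardium, a difference of 0.68 ± 0.20 (edgeR adjusted p 1.00, 6 of 6 mice higher). Input at the start of Men1 was 6.15, 10.2 and 11.3 CPM per kb in the area at risk against 9.76, 13.7 and 17.7, a difference of -0.51 ± 0.15 (edgeR adjusted p 1.00, 5 of 6 mice lower). The ranges overlapped in each of these comparisons. The median SE was 0.23 log2 units over the 61 members tested for H3K9me2 and 0.21 over the 316 tested for input. It was 0.40 over the 310 tested for the input-corrected difference. Members that did not pass the filter are not in these medians. Input differences up to the 0.68 ± 0.20 of Eya2 and input-corrected differences from -1.07 to 1.17 were not called at this depth.

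Summed over all members, the share of a library's listed counts was 0.532% ± 0.047 (SD, n = 6) for H3K9me2 of the area at risk and 0.543% ± 0.042 for H3K9me2 of the remote myocardium. It was 0.590% ± 0.014 for area at risk input and 0.5999% ± 0.012 for remote input, for 0.259% of the listed bases. The 5 densest regions alone held 0.068% ± 0.015 of the H3K9me2 counts of the area at risk and 0.076% ± 0.016 of those of the remote myocardium, against 0.066% ± 0.0064 and 0.070% ± 0.0077 of the inputs. Within mice, area at risk minus remote was -0.011 ± 0.050 percentage points (SD, n = 6) for the H3K9me2 share in all members, lower in 3 of 6 mice, and -0.0103 ± 0.0079 for the input share, lower in 5 of 6. In the 5 densest regions it was -0.0087 ± 0.012 for H3K9me2, lower in 4 of 6 mice, and -0.0047 ± 0.0032 for input, lower in 6 of 6. These differences between biopsies were not tested.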

How the data were processed

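Chromatin of about 25 mg of heart tissue was crosslinked, digested enzymatically and precipitated with an H3K9me2 antibody, and libraries were made with 12 PCR cycles and read in pairs of 101 bases, per the labels' protocols. The authors deposited 4 tables of read counts, as whole numbers per region and library, over the same 53386 regions of build mm10, with 12 count columns each. The deposited tables also hold a log2 fold change and log2 mean CPM and an FDR beside each p-value, per the file headers, which were not used. Bowtie2 2.2.2, SICER 1.1 and edgeR are named without roles, per the submitters' processing notes; the counting rule and any removal of duplicates are not given in the sources used here. A file's region coordinates are printed as they stand.

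Members were ranked by summed input counts per base, ties at the limit kept. Counts were tested with edgeR 4.0.16 in R 4.3.3 (TMM factors, filterByExpr, quasi-likelihood F test, two-sided, Benjamini-Hochberg over all tested regions, FDR 0.05), and each SE is the log2 fold change divided by the square root of F. The script was tested on simulated data. The 4 contrasts of 2 groups used 12 libraries each and the interaction all 24. Alternatives were mouse as a block, median-of-ratios factors, library totals, no filter, DESeq2 1.42.0, each mouse left out, and the top 0.5% or 2%, equal library weights or a width of at least 1000 bases for the members. The mouse number in the labels is shared by the 4 libraries of an animal and therefore pairs them; deviations of same-mouse libraries correlated between -0.169 and 0.167. No pair of libraries in a group was a copy (chi-square per region 1.02 to 2.03).

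Gene spans, start sites and promoter windows came from RefSeq on GRCm38.p6, the assembly of mm10, and regions were matched by position. Named regions are the 8 densest, up to 5 in each of the longest and next longest runs, the 3 highest and 3 lowest mean ratios of H3K9me2 to input, the smallest p in each direction between biopsies, and the regions at the limit. The members, gene families and lists were chosen with earlier results of these data known.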

Additional observations from a re-analysis of the deposited data

Results flagged for a closer look

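One of 60 groups of 6 libraries checked had a library far from the rest. At the Gm36876 region, H3K9me2 of the area at risk was 227 CPM per kb in mouse 19, against 150.5 in the next highest mouse and 121.1 in the lowest. The gap takes up 0.723 of the group's range, above Dixon's 95% critical value for 6 samples. Chance alone flags about 1 in 20 groups. The H3K9me2 library of mouse 19 from the area at risk also had the highest share of counts in the members, 0.607%, and in the 5 densest regions, 0.096%, of the 6 in its group. The part of this library in other results is given by the values without mouse 19.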

How the results depend on the processing

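With mouse as a replicate block, area at risk H3K9me2 over input was lower at 37.1% and remote at 44.0% of the members tested, and among named regions only the area at risk call at Cdk8 changed. All counts between biopsies stayed at 0 in every alternative. The list's limit moved other values, and the cause was not tested. Counts relative to bases are taken here over the eligible regions only, unlike the shares given above, which are over all listed regions. With the top 0.5%, 15.4% of members were higher in the area at risk (median -0.41) and 15.2% of regions chosen on remote inputs; counts relative to bases were 1.97 and 2.03 times for H3K9me2 of the area at risk and the remote myocardium and 2.00 and 2.05 times for their inputs, against 1.47, 1.50, 1.67 and 1.71, and the median H3K9me2 percentiles were 59.8 and 54.3, against 46.2 and 47.1. With the top 2%, 5.76% and 7.45% of members were higher in the area at risk and the remote myocardium, and the ratios to bases were 1.21, 1.23, 1.48 and 1.51. With members of at least 1000 bases the area at risk median was -0.53, the remote median of regions chosen on area at risk inputs -0.33, the input ratios to bases 1.61 and 1.66, and the percentiles 38.2 and 37.1. Equal library weights gave -0.13 for that remote median. DESeq2 gave 5.15% higher at regions chosen on remote inputs, and leaving out 1 mouse 5.36% to 8.84%. No filter gave a remote median of -0.91 at start-site regions chosen on area at risk inputs. Ratios near 0 changed sign at Zc3h7a in the remote myocardium (0.0046 in DESeq2, -0.085 to 0.070 with 1 mouse left out), at Gm36876 in the area at risk (-0.014 to 0.15 with 1 mouse left out) and at Cdk8 in the remote myocardium (0.0010 with the block, 0.0028 with median-of-ratios factors, 0.0035 without a filter, 0.0054 in DESeq2, and -0.042 to 0.023 with 1 mouse left out). The other 371 alternatives of the summary values stayed within a set tolerance, which allowed some change. They include shares between the biopsies that were 0 in both fits. Counts of listed regions limit what can be seen at single members, and reads outside them are unknown.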
